A study of Mus musculus with 8 samples.

Results

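Aminoacyl tRNA synthetases attach each amino acid to its tRNA, and their genes were compared between male and female genital tubercles of the mouse. The penis and the clitoris both develop from this outgrowth of the embryo. Members were the probe sets annotated to a single gene whose symbol follows the synthetase naming pattern (one letter and ars, with or without a 1 or 2), together with Farsa, Farsb, Eprs and the scaffold genes Aimp1 and Aimp2. The rule used symbols and no measured value. It gave 75 probe sets of 37 genes, out of 34945 probe sets that named 1 gene and 18193 genes. By location of the enzyme, 19 of these genes encode cytosolic synthetases or their subunits, 16 encode mitochondrial synthetases and 2 encode scaffold proteins that are not synthetases themselves.

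The samples were 4 male and 4 female FVB/N embryos at 14 days post coitum (Theiler stage 22), with no treatment and no transgene named in the labels. The tubercle region was microdissected without pooling, and its total RNA went through 2 rounds of amplification and biotin labelling before hybridization to 1 Affymetrix MOE430 array per sample. Values are linear intensities, in which a probe set's brightness follows the amount of its target but cannot be compared with the brightness of another probe set. A difference is the male mean minus the female mean of log2(intensity + 16), given with its standard error (SE) from limma. The added constant shrinks differences of dim probe sets. Group levels are means ± SD with n = 4 per sex. "Passed" means a limma p-value under 0.05 after Benjamini-Hochberg adjustment over the 22519 probe sets tested. The p-values reflect only how far these samples spread, since the labels do not say whether embryos shared a litter, an amplification or a hybridization, and the number of arrays limits the precision.

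Each synthetase recognises one amino acid, or a pair of them in the fused enzyme encoded by Eprs, and charges the tRNAs that the ribosome then reads. In the cytosol several of these enzymes sit in a multisynthetase complex held together by the scaffold proteins, while mitochondria use a separate, nuclear-encoded set, apart from a few enzymes that serve both compartments such as those of Gars and Kars. Uncharged tRNA activates the kinase encoded by Eif2ak4 (GCN2), which raises translation of the transcription factor ATF4, and ATF4 in turn induces many cytosolic synthetase genes through composite C/EBP-ATF elements.

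Because that element is the best known shared control sequence of the family, the RefSeq promoters (GRCm38.p6, 250 bases before to 50 after each start) were searched for its core, TGATGNAA, on both strands. Promoters were held for 28 of the 37 genes. The core was found in 5 of them, Aars, Gars, Iars, Tars and Yars, against 4.51% of 27025 genes with a promoter in the table and 2.58% of the 9235 tested genes among them. The form TGATGCAA, which overlaps the core by definition, was in 4 of the 28 (Aars, Iars, Tars and Yars), against 1.03% of all genes and 0.682% of the tested ones. The E-box CACGTG was in 5 of 28, against 8.09% and 11.8%. These matches describe the letters of the windows and show nothing of binding. The windows with the core run from 150 bases before to 20 bases after the start, each read 5′ to 3′ along the gene's strand, with the core in capitals. They lie at chr8:111033692-111033861 (+) for Aars, chr6:55037851-55038020 (+) for Gars, chr13:49681980-49682149 (+) for Iars, chr15:11399639-11399808 (-) for Tars and chr4:129189753-129189922 (+) for Yars.
Aars: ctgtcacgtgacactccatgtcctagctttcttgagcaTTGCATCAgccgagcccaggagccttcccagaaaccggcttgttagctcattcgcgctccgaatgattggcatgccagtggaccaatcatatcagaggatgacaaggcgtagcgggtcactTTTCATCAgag
Gars: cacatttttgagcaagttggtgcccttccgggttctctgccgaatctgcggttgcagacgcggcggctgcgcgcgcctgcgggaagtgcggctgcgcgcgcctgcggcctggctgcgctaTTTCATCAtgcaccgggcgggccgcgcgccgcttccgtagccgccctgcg
Iars: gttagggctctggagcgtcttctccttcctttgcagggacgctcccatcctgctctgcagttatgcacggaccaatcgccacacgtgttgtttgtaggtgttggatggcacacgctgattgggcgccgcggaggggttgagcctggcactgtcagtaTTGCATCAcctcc
Tars: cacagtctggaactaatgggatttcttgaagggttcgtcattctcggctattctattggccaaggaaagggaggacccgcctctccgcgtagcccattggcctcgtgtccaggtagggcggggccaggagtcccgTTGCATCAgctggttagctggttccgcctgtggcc
Yars: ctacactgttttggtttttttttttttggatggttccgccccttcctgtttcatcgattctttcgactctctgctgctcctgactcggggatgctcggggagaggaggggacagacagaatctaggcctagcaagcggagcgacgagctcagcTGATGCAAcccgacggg

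In Aars the core starts 112 bases before the start and a second match begins at base 10 after it. In Tars and Gars it lies 15 and 30 bases before the start, and in Iars and Yars it begins at base 8 and base 4 after the start. All 5 of these genes encode cytosolic enzymes. The differences of these genes are given below: Aars, Iars, Tars and Yars were lower in males, and Gars did not pass.

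Control and marker genes were read first on each array. Hoxd13, Isl1 and Shh, genes of the tubercle, were bright on all 8 arrays, with lowest intensities of 28405, 25445 and 16479. The Y-linked genes Eif2s3y, Uty and Kdm5d were low on the female arrays and high on every male array. Male replicate 3 stood apart with an Xist intensity of 16036, against 230 to 620 on the other male arrays and 32465 to 35816 on the female arrays, so counts are also given without it. The control probe sets for 18S ribosomal RNA, an RNA without a poly(A) tail, averaged 13.67 ± 0.62 in females and 14.45 ± 0.43 in males on the log2 scale (exact permutation test, two-sided, p = 0.114, and 0.229 adjusted over 4 measures). The 3′ probe set of the 3 for 18S read 8332 to 18926 in females and 21050 to 33634 in males, without overlap. The array median was higher in males by 0.21 (p = 0.0286, exact permutation test, the smallest that 4 against 4 allows, and 0.114 adjusted). The 3′ signal of the Gapdh control exceeded its 5′ signal by 3.63 to 4.38 on the log2 scale, with no difference between the sexes beyond the spread (p = 0.257, exact permutation test), so the arrays mainly read the 3′ ends of transcripts.

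Cytosolic synthetase genes were mostly lower in male tubercles. With each gene read on its brightest tested probe set, 15 of 19 were lower in males, 1 was higher and 3 did not pass. Over all 11489 tested genes 42.2% passed, 28.2% lower and 14.0% higher in males, so a larger share of cytosolic synthetases was called lower, a description that was not tested as a list. The median difference of the 19 genes was -0.39, beside -0.12 over all tested genes. An a, s or x suffix marks probe sets whose probes can match several transcripts. Such a suffix was on the brightest probe set of Farsa, Farsb, Hars, Iars, Qars and Wars. Their tested probe sets without it did not pass, at 0.08, -0.23, -0.23, -0.22, -0.05 and -0.22. Without all suffix probe sets 8 of 18 tested cytosolic genes were lower and 1 higher. The median was then -0.23, beside -0.09 over all tested genes. Brighter genes were called more often in both directions. Of 7108 genes at a filter set at the upper quartile of brightness, 33.2% were lower and 18.8% higher (52.0% in all). There 13 of 16 cytosolic genes were lower and 1 higher. In 13 of the 19 genes every male array lay below every female array, as in 27.3% of all tested genes, and in 1 every male array lay above, as in 12.3%.

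**Figure D1:**
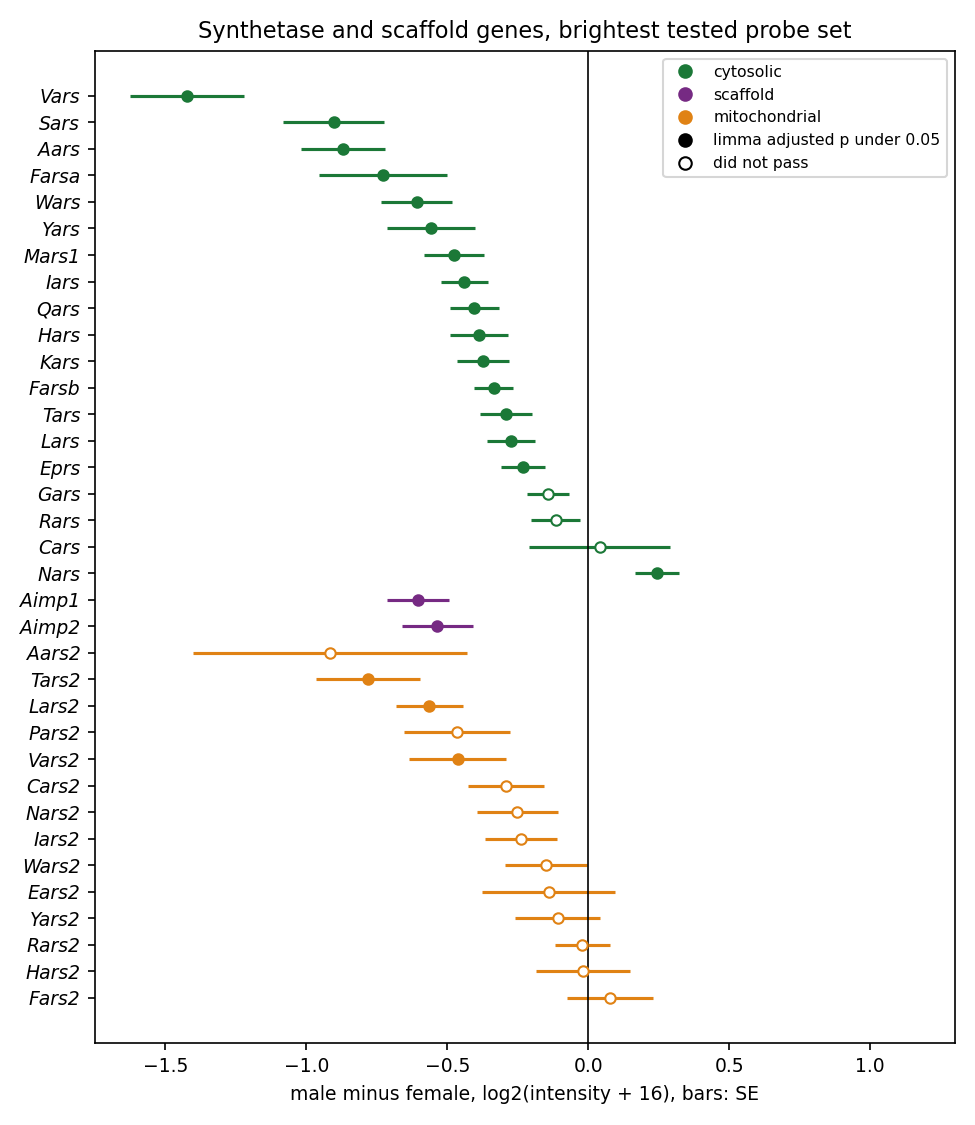
Male minus female difference on the log2(intensity + 16) scale (x axis) for each of the 35 tested genes (y axis), with the SE of the limma fit as bars and filled points for genes that passed. Of the 19 cytosolic genes 17 lie left of zero, from -1.42 for Vars, and Nars is the one that passed to the right, at 0.24.

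On the brightest probe sets the difference of largest size was that of Vars, the valyl tRNA synthetase. Its intensity was 669.2, 739.5, 659.9 and 704.4 on the 4 female arrays and 351.3, 221.6, 191.5 and 252.4 on the male arrays. No male array came near the lowest female one, and the mean fell from 693.2 ± 36.3 to 254.2 ± 69.4 (-1.42 ± 0.20, limma adjusted p = 0.000314). Only 1 probe set reads this gene.

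Sars and Aars, which charge serine and alanine, came next. Sars read 1798, 2207, 2047 and 1762 in females and 1495, 982.0, 880.3 and 880.7 in males. Male replicate 1 was the highest male array and still lay below every female array (-0.90 ± 0.18, limma adjusted p = 0.00217). Aars read 5372, 5644, 5406 and 5441 in females and 3712, 3254, 2131 and 3064 in males. The female arrays were tightly grouped and male replicate 3 was the lowest (-0.87 ± 0.15, limma adjusted p = 0.000911). Both genes had a second probe set that was also lower in males, at -1.09 ± 0.20 for Sars and -1.38 ± 0.25 for Aars.

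The catalytic subunit gene Farsa, the alpha chain of the phenylalanine enzyme, read 1739, 1476, 1537 and 1555 in females and 1271, 543.5, 1148 and 995.7 in males. Male replicate 2 was the lowest and the groups did not overlap (-0.73 ± 0.23, limma adjusted p = 0.0225). The call ended without female replicate 1 (adjusted p = 0.0588), and a dimmer Farsa probe set differed by 0.08 ± 0.21 and did not pass. Farsb, the beta chain of the same enzyme, fell from 17868 ± 1003 to 14148 ± 474 (-0.34 ± 0.07, limma adjusted p = 0.00252). All 4 tested Farsb probe sets had negative differences, from -0.34 to -0.23, of which 2 passed.

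Wars, for tryptophan, read 2180, 2244, 2043 and 2167 in females and 1527, 1308, 1264 and 1562 in males. The sexes were separated on every array (-0.61 ± 0.12, limma adjusted p = 0.00263), and a second Wars probe set passed at -0.47 ± 0.14 while another, at -0.22 ± 0.19, did not. Yars, for tyrosine, read 2270, 2186, 2500 and 2205 in females and 1480, 2071, 1531 and 1226 in males. Male replicate 2 came closest to the females without reaching them (-0.56 ± 0.16, limma adjusted p = 0.0139).

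**Figure D2:**
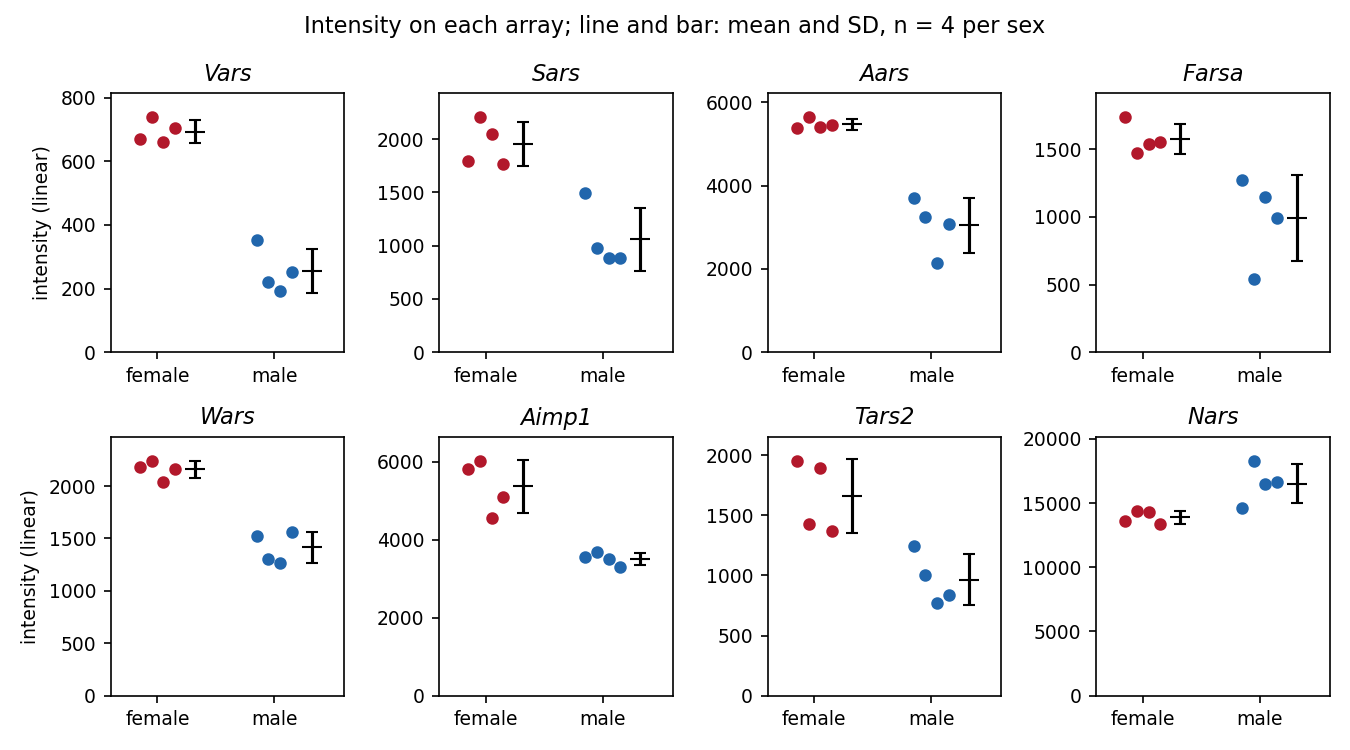
Linear intensity (y axis, from 0) of 8 genes on each array by sex (x axis), 1 point per array, with the mean and SD (n = 4) beside the points. In the panels of Vars, Sars, Aars, Farsa, Wars, Aimp1 and Tars2 all male points lie below all female points, and in that of Nars all lie above.

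Genes of the multisynthetase complex were read as a list of enzymes with the scaffold genes Aimp1 and Aimp2. On their brightest probe sets 8 of 9 tested genes were lower in males, 0 were higher and Rars did not pass, beside 28.2% of all genes lower and 14.0% higher, and the median was -0.40. Eprs, counted among the 8, had other probe sets called higher, and the scaffold gene Eef1e1, which is outside the list, was called higher (both below). With the 18S covariate 5 of the 9 were lower. Of the 12 cytosolic genes outside it, 9 were lower and 1 higher, with a median of -0.47, so the complex did not stand out from the other cytosolic enzymes in these counts, and the difference was not tested. Mars1, for methionine, read 5002, 4335, 4813 and 4916 in females and 3864, 3247, 3108 and 3496 in males. Every male array was below the females (-0.48 ± 0.11, limma adjusted p = 0.00418).

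Iars, for isoleucine, read 9069, 8203, 8616 and 8292 in females and 5954, 6091, 6358 and 6805 in males. Here too the groups did not overlap (-0.44 ± 0.08, limma adjusted p = 0.00177), while a second probe set at -0.22 ± 0.11 did not pass. Qars differed by -0.40 ± 0.09, with 3 further probe sets between -0.21 and -0.05 that did not pass. Kars, whose product serves both cytosol and mitochondria, differed by -0.37 ± 0.09. Lars differed by -0.27 ± 0.08 with overlapping ranges, and leaving out female replicate 1 or 2 or male replicate 2 or 4 ended its call (limma adjusted p up to 0.0685). Tars (-0.29 ± 0.09) lost its call without female replicate 1 or male replicate 2 or 4 (limma adjusted p up to 0.0795), while Hars (-0.39 ± 0.10) kept it without each array. A second Hars probe set (-0.23 ± 0.11) did not pass, and with the 4 18S covariates described below the limma adjusted p of Hars was 0.0658 to 0.634.

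The scaffold gene Aimp1 read 5802, 6032, 4550 and 5093 in females and 3558, 3673, 3503 and 3304 in males. The male arrays were close to each other and below all females (-0.60 ± 0.11, limma adjusted p = 0.00140). Aimp2 read 3595, 3490, 3736 and 4022 in females and 3026, 2382, 2735 and 2150 in males. Its groups did not overlap either (-0.54 ± 0.13, limma adjusted p = 0.00555), and its second probe set passed at -0.51 ± 0.13. By contrast Eef1e1, which encodes another scaffold protein of the complex and lies outside the naming rule, was higher in males (0.49 ± 0.13, limma adjusted p = 0.00912), from 6540 ± 936 to 9207 ± 1284, with overlapping ranges.

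Eprs, the fused enzyme for glutamate and proline, gave calls in both directions. On its brightest probe set it read 20694, 20189, 20696 and 17481 in females and 15990, 18157, 17143 and 15982 in males. The ranges overlapped because of female replicate 4 (-0.23 ± 0.08, limma adjusted p = 0.0304), and the call was lost when female replicate 1, 2 or 3 or male replicate 1 or 4 was left out (adjusted p up to 0.0921). A dimmer probe set read 905.6, 1699, 1575 and 1968 in females and 7663, 4180, 6636 and 3104 in males. On it every male array was above every female one (1.77 ± 0.29, limma adjusted p = 0.000663). A further one read 1500, 2743, 2541 and 2415 in females and 8779, 4976, 6203 and 3948 in males. It also separated the sexes in the male direction (1.35 ± 0.24, limma adjusted p = 0.00108). The platform lists the same accession for all 3, so a direction for Eprs as a gene is not settled by these arrays. Leaving Eprs aside, 14 of 18 cytosolic genes were lower in males.

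**Figure D3:**
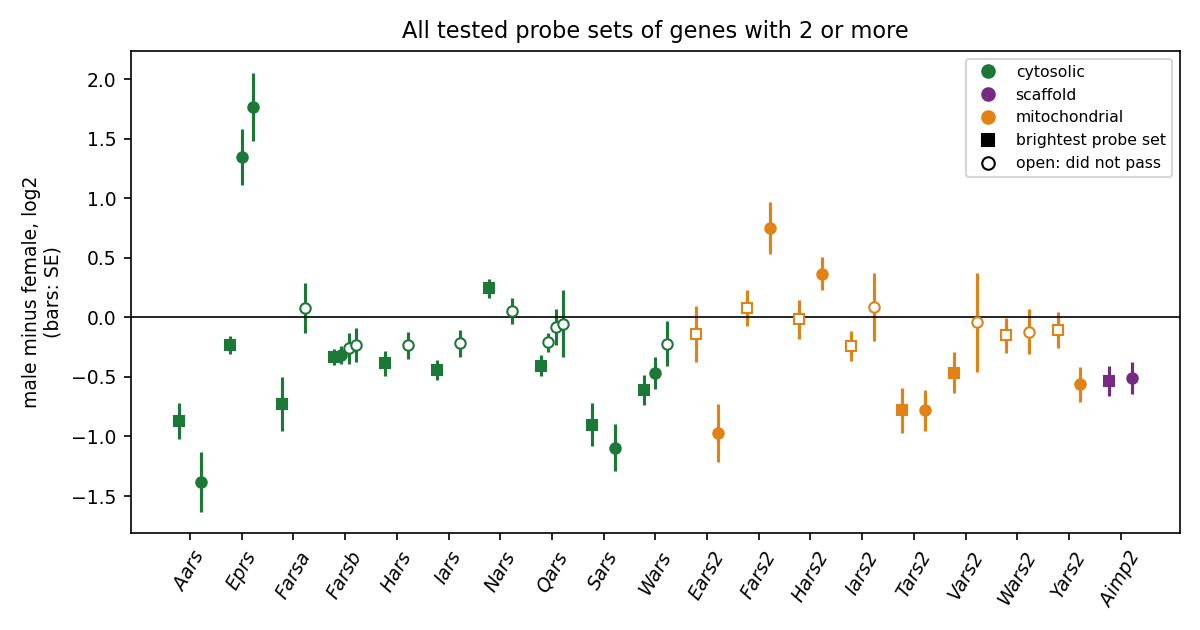
Difference (male minus female, log2, y axis) of every tested probe set of the 19 genes with at least 2 (x axis), with SE bars, squares for the brightest probe set and open symbols for those that did not pass. Eprs is the one gene with calls on both sides of zero, at -0.23, 1.35 and 1.77.

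Across the members 60 of 75 probe sets passed the brightness filter, of which 28 were lower in males, 5 were higher and 27 did not pass. Over all tested probe sets 40.5% passed, 21.9% lower and 18.7% higher. Of the 19 genes with at least 2 tested probe sets, 4 had both signs (Eprs, Farsa, Hars2 and Iars2), and of 7 with at least 2 called probe sets, Eprs alone had calls in both directions. Among all genes with at least 2 called probe sets the share with both directions was 24.5%.

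Nars, for asparagine, was the one cytosolic gene called higher in males. It read 13610, 14369, 14272 and 13349 in females and 14633, 18314, 16453 and 16611 in males. All male arrays were above the females, male replicate 1 narrowly (0.24 ± 0.08, limma adjusted p = 0.0265), and the call was lost without any array except female replicate 2 or male replicate 1 (adjusted p up to 0.0847). A second Nars probe set differed by 0.05 ± 0.11 and did not pass. The other 3 that did not pass were Gars (-0.14 ± 0.07, limma adjusted p = 0.142), Rars (-0.12 ± 0.09, limma adjusted p = 0.313) and Cars (0.04 ± 0.25, limma adjusted p = 0.911). The sign of Cars, for cysteine, turned with quantile normalization (-0.13).

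Synthetases fall into classes by the fold of their catalytic domain, class I with a Rossmann fold and class II with an antiparallel sheet. Without Eprs, which joins a domain of each, 9 of 17 tested class I genes were lower in males and 0 higher, and 8 of 15 class II genes were lower and 1 higher, beside 28.2% and 14.0% of all genes. With the 18S covariate 5 and 3 were lower and 0 higher. The medians were -0.29 and -0.37. Of 12 cytosolic genes widely described as ATF4 targets 9 were lower and 1 higher, with a median of -0.36, and of the 7 others 6 were lower and 0 higher, with a median of -0.39. With the 18S covariate 5 and 3 of these were lower.

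Of 16 mitochondrial synthetase genes 14 were tested, and of these 3 were lower in males, 0 were higher and 11 did not pass, beside 28.2% of all genes lower and 14.0% higher. The difference from the cytosolic count was not tested. Their median was -0.24 and 13 of the 14 differences were negative, against 6892 of 11489 for all tested genes. The brightness and precision of the groups moved with this: the median of the mean log2 values was 10.3 for the mitochondrial and 13.2 for the cytosolic probe sets, and the median SE was 0.15 and 0.09. Their part in the count was not tested.

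Tars2, for mitochondrial threonine, read 1957, 1428, 1895 and 1370 in females and 1245, 1001, 768.9 and 841.0 in males. All male arrays lay below the females (-0.78 ± 0.18, limma adjusted p = 0.00574), and its second probe set gave -0.78 ± 0.17. Lars2, for leucine, read 3728, 2991, 3612 and 3133 in females and 2332, 2420, 2070 and 2245 in males. Again the groups did not overlap (-0.56 ± 0.12, limma adjusted p = 0.00287). Vars2, for valine, read 722.0, 770.4, 727.7 and 960.3 in females and 698.5, 503.0, 578.1 and 513.5 in males. Male replicate 1 was close to the lowest female (-0.46 ± 0.17, limma adjusted p = 0.0477), the call was lost without any array except male replicate 1 (adjusted p up to 0.123), and a second probe set at -0.04 ± 0.42 did not pass.

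Some mitochondrial genes passed on a dimmer probe set and not on the brightest. Lower in males in this way were Ears2 (-0.97 ± 0.24, against -0.14 ± 0.24 on the brightest) and Yars2 (-0.56 ± 0.15, against -0.11 ± 0.15). Higher in males were Fars2 (0.75 ± 0.22, against 0.08 ± 0.15) and Hars2 (0.37 ± 0.14, against -0.02 ± 0.17). The other genes with no call were Aars2, Cars2, Iars2, Nars2, Pars2, Rars2 and Wars2, with differences from -0.92 ± 0.49 for Aars2 to -0.02 ± 0.10 for Rars2. In Cars2 and Iars2 every male array lay below every female array without a call (limma adjusted p = 0.102 and 0.153). For Iars2 the lowest female array read 1534.7 and the highest male array 1533.8, and its second probe set differed by 0.08 ± 0.29. Such separation was found in 5 of the 14 tested mitochondrial genes, beside 27.3% of all tested genes. Aars2 rested on male replicate 3, which read 27.8 against 197.4 to 254.6 on the other male arrays.

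Mars2 and Sars2 lay below the brightness filter. Sars2 read 273.0, 195.5, 130.5 and 135.6 in females and 86.4, 99.2, 67.3 and 133.1 in males, and the brighter Mars2 probe set read 91.9, 21.2, 105.6 and 177.9 in females and 208.7, 168.2, 179.2 and 219.3 in males. These dim values overlapped between the sexes and were not tested in the main comparison.

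The cytosolic and the mitochondrial enzyme for the same amino acid could be set side by side in 15 pairs, a comparison added after the data had been seen. The cytosolic gene differed more toward females than its partner by 0.96 for valine (Vars against Vars2), by 0.80 for Farsa against Fars2 and by 0.46 for Wars against Wars2. For Tars against Tars2 the mitochondrial gene lay further toward females, by 0.49. Nars (0.24) and Nars2 (-0.25) lay on opposite sides of zero, 0.49 apart. Each of these 5 had p = 0.0286, the smallest that the exact permutation test allows, and p = 0.0857 after adjustment over the 15 pairs, so no pair passed. For alanine the difference between Aars and Aars2 was 0.04 (exact permutation test, p = 0.971).

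The genital tubercles were then compared array by array over the same genes. The median deviation of the 19 cytosolic genes from their mean over all arrays was 0.15 to 0.27 on the female arrays and -0.27 to -0.10 on the male arrays, without overlap. For the 14 mitochondrial genes it was 0.12 to 0.17 in females and -0.23 to 0.02 in males. These medians restate the differences above by array. None was taken over all tested genes, whose median difference was also negative (-0.12). On the mean of the 3 18S probe sets female replicate 2 (14.54) lay above male replicates 2 and 4 (14.16 and 14.01), while on the 3′ probe set it read 18926, below every male array. Its cytosolic median of 0.15 was the lowest of the females. The part of the 18S level in these medians was not tested.

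**Figure D4:**
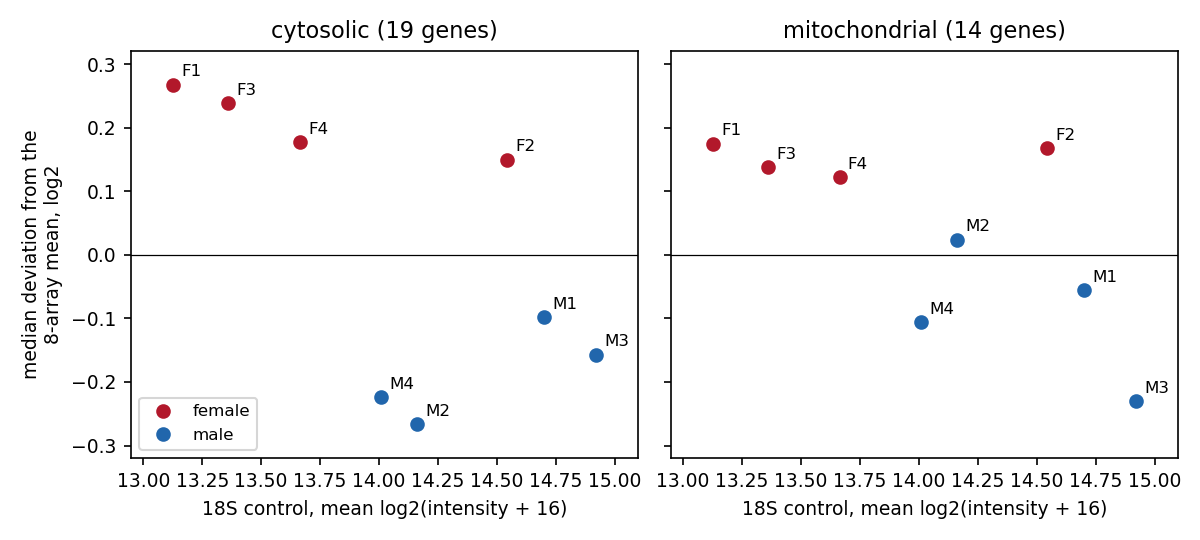
Median deviation of the cytosolic (left) and mitochondrial (right) genes from their 8-array mean (y axis, log2) against the mean log2 level of the 3 18S control probe sets (x axis), 1 point per array (F female, M male, with the replicate number). The 4 female arrays lie at 0.15 to 0.27 (cytosolic) and 0.12 to 0.17 (mitochondrial) and the male arrays lower, and 3 of the 4 female arrays lie left of every male array, female replicate 2 being the exception on this mean.

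The calls depended on how the 18S level was taken into account. With the mean of the 3 probe sets as a covariate 10 of 35 members were lower in males and 0 higher, 8 of them cytosolic and the other two Aimp1 and Aimp2, beside 23.7% of all genes called, 15.5% lower and 8.18% higher (21.0% of all probe sets, 11.9% lower and 9.04% higher). The cytosolic genes were Vars, Sars, Aars, Wars, Qars, Iars, Farsb and Lars, and the cytosolic median was -0.36. With the 3′ 18S probe set alone, whose sexes did not overlap, no member passed in limma, while 9 had an unadjusted p under 0.05 and 30 of 35 differences were negative. There 2.0% of all genes and 1.84% of all probe sets passed. With the 5′ or the middle probe set alone 16 and 15 members were lower, where 6614 and 6171 of the 22519 probe sets passed. How far the 18S level and sex contribute cannot be told apart on the 3′ probe set. Without male replicate 3, 15 cytosolic genes were lower and 0 higher, and 2 mitochondrial genes were lower.

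Genes around the synthetases were read from lists of related functions, each to be set against the 42.2% of all genes that passed (28.2% lower and 14.0% higher) and, with the 18S covariate, against 15.5% lower and 8.18% higher. Among 12 tested relatives and other genes of aminoacylation, 3 were lower and 2 higher in males, 41.7% in all and so near the share over all genes, with a median of -0.21. With the 18S covariate 0 were lower and Eef1e1 alone was higher. Besides Eef1e1, the genes called without the covariate were Dtd2, a deacylase that clears mischarged tRNA (-0.85 ± 0.30), Gatc (-0.43 ± 0.14) and Qrsl1 (0.35 ± 0.11), subunits of the mitochondrial amidotransferase that makes glutaminyl tRNA, and Pstk (-0.37 ± 0.13), the kinase of selenocysteine tRNA.

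Of 8 tested genes for the kinases that phosphorylate eIF2 and their regulators, 5 were lower in males and 1 higher, with a median of -0.66, and with the 18S covariate 3 were lower and 0 higher. Eif2ak4, the sensor of uncharged tRNA, fell from 4544 ± 376 to 1929 ± 263 (-1.24 ± 0.13, limma adjusted p = 6.17e-05). Its activator Gcn1 differed by -1.72 ± 0.21, the heme-regulated kinase gene Eif2ak1 by -0.91 ± 0.18, and Ppp1r15a, a phosphatase subunit that reverses the phosphorylation, by -0.79 ± 0.25. The gene called higher was Ppp1r15b, the other such subunit (0.29 ± 0.08). The kinase genes Eif2ak2 (-0.31 ± 0.20) and Eif2ak3 (0.16 ± 0.12) did not pass. Ppp1r15a (limma adjusted p = 0.0890) and Ppp1r15b (0.0821) did not pass with the 18S covariate.

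In the amino acid response list, made of ATF4 and genes known to follow it, 12 of 26 tested genes were lower and 2 higher, with a median of -0.21, and with the 18S covariate 6 were lower and 1 higher. The serine and one-carbon enzyme genes Shmt2 (-1.33 ± 0.16) and Phgdh (-0.92 ± 0.11), the factor gene Atf5 (-1.23 ± 0.22) and the translation inhibitor gene Eif4ebp1 (-1.10 ± 0.18) were lower, as were Asns, asparagine synthetase (-0.34 ± 0.10), and Ddit3 (-0.66 ± 0.21). With the 18S covariate Asns (limma adjusted p = 0.235) and Ddit3 (0.0507) did not pass. Vldlr, a lipoprotein receptor gene, was higher (0.98 ± 0.15). Atf4 itself differed by 0.11 ± 0.13 on its brightest probe set, which did not pass, and by -0.81 ± 0.13 on a second that did (limma adjusted p = 0.000779). Trib3 was too dim to be tested, at 127.0 ± 29.9 in females against 102.1 ± 52.2 in males.

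Of 35 tested genes of tRNA processing and export 15 were lower and 4 higher, with a median of -0.31, and with the 18S covariate 9 were lower and 1 higher. Among them were Pop4, a protein of RNase P that trims tRNA precursors (-1.17 ± 0.15), and the pseudouridine synthase gene Pus1 (-1.15 ± 0.17). Wdr4, a subunit of a tRNA methyltransferase complex (-0.92 ± 0.22), and the methyltransferase gene Trmt1 (-0.91 ± 0.16) were also lower. Xpot, the export receptor of tRNA, was higher on its brightest probe set (0.28 ± 0.08) and lower on another (-0.37 ± 0.12). Wdr4 (limma adjusted p = 0.0544) and the brightest Xpot probe set (0.0613) did not pass with the 18S covariate. Of 20 tested genes of RNA polymerase III, which transcribes tRNA and other small RNAs, and of its factors, 7 were lower and 2 higher. That was 45.0% in all and so near the share over all genes, and with the 18S covariate 3 were lower and 0 higher. Those of largest difference were Gtf3c1 at -1.49 ± 0.13, the repressor Maf1 at -0.80 ± 0.12, Gtf3a at -0.67 ± 0.12 and Polr3gl at -0.60 ± 0.20. Polr3gl did not pass with the 18S covariate (limma adjusted p = 0.153). Of 11 tested genes of translation elongation factors and their regulators, 6 were lower and 0 higher on the brightest probe sets. With the 18S covariate 3 were lower and 0 higher. The 6 included the mitochondrial factors Tufm (-0.78 ± 0.12) and Tsfm (-0.74 ± 0.18), the selenocysteine factor Eefsec (-0.81 ± 0.19) and Eef1d (-0.57 ± 0.11). Also among them was the kinase gene Eef2k (-0.31 ± 0.12, limma adjusted p = 0.0490). A dimmer Eef2k probe set was called higher (0.94 ± 0.29, limma adjusted p = 0.0220). Eefsec (limma adjusted p = 0.0544) and Eef2k (0.161) did not pass with the 18S covariate.

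Markers of other cell types moved with sex as well, and in bulk tissue fewer cells of a type and less RNA per cell cannot be told apart. Of 9 tested skeletal muscle markers 7 were higher in males, with a summed intensity of 6939 to 16573 on the female arrays and 19351 to 30021 on the male arrays. Of 10 epithelial markers 5 were lower and 1 higher, with sums of 56907 to 66484 and 56167 to 62409, and of 5 tested cartilage markers 3 were higher (5737 to 6729 and 8984 to 14761). Of 6 neuronal markers 4 were higher and 1 lower (8649 to 10114 and 11421 to 15654), of 7 endothelial markers 3 higher and 1 lower (9804 to 11308 and 11450 to 13794), of 4 macrophage markers 2 higher and 1 lower (3997 to 4629 and 5377 to 6443), and of 6 erythroid markers 1 higher and 2 lower (40428 to 43192 and 44618 to 54415). A sum follows its brightest probe sets. The erythroid sums were mostly Hbb-y (39050 ± 1273 in females and 46400 ± 4659 in males), of which 1 other probe set was called lower. Hba-x (-1.09 ± 0.17) and Hbb-bh1 (-1.04 ± 0.22) were the lower erythroid markers. Of 15 cell cycle genes 8 were lower and 0 higher. Over all genes 28.2% were lower and 14.0% higher, and with the 18S covariate 15.5% and 8.18%. With that covariate 8 muscle and 3 cartilage markers were higher and 0 lower. Lower and higher were 4 and 1 epithelial, 0 and 2 neuronal, 1 and 2 endothelial, 0 and 1 macrophage, and 2 and 0 erythroid markers. Of the cell cycle genes 3 were then lower and 0 higher. No tested marker was at 0 on any array, and the part of these shifts in the synthetase differences was not tested.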

How the data were processed

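The authors deposited 1 linear intensity per probe set and array. The submitters' processing notes name GCOS, Affymetrix software, without a version. Trimming 2% at each end gave a mean of 1500.0 on all 8 arrays, so the deposited scaling was kept. The table held 45101 probe sets, 64 of them controls. The platform annotation gave 1 gene for 34945, several for 932 and none for 9160, and all 75 member probe sets matched the reference gene table. A further probe set named a member together with another gene and was left out. Of the 75, 26 carry an a, s or x suffix, which marks probes that can match several transcripts, for x possibly of unrelated genes.

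The linear values were transformed as log2(value + 16), and the 22519 probe sets other than controls at or above the median mean log2 value (7.77) were tested with limma 3.58.1 (R 4.3.3; lmFit, eBayes with trend, sex as the only term). Each gene is represented by its brightest tested probe set, one choice for all arrays. The method was tested on simulated data with independent noise for each probe set. That simulation cannot show how the method handles shifts shared by many probe sets. None of 28 array pairs was identical. Arrays correlated at 0.966 to 0.985 within and 0.904 to 0.953 between sexes.

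Values on every array are given for the called cytosolic genes with the 8 largest differences and the called mitochondrial genes. They are also given for both scaffold genes and genes with opposite calls. Nars, Mars2 and Sars2 were added after their values were seen. Of each of the 6 other lists, up to 4 called genes of largest difference are named. A short set is always named (Atf4, Asns, Ddit3, Trib3, Eif2ak4, Eef1e1, Xpot). Phgdh, Qrsl1, Ppp1r15b, Eif2ak2, Eif2ak3 and Eef2k were added after their values were seen. The members, lists, tests and alternatives were chosen with earlier results of these data known. Alternatives were quantile normalization, pseudocounts of 1 and 64, other filters, variance models, array weights, an 18S covariate, the replicate number as a block, other ways to represent a gene and leaving out each array. The single 18S probe sets as covariates and the pairs by amino acid were added after seeing the data.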

Additional observations from a re-analysis of the deposited data

Results flagged for a closer look

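Of 70 groups of 4 arrays examined (35 genes in each sex), 2 held an array far from the others by Dixon's criterion, and chance alone marks about 1 in 20 groups. In the female arrays Eprs read 17480.8 on replicate 4, against 20189 to 20696 on the others. In the male arrays Aars2 read 27.8 on replicate 3, against 197.4 to 254.6 on the others.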

How the results depend on the processing

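The count of members lower in males (20 in the main comparison) was 10 with the 18S covariate, 0 with the 3′ 18S probe set as covariate and 11 without probe sets of an a, s or x suffix, where 6 called genes did not pass and 1 turned its sign while still tested. The cytosolic count (15) was 8, 0 and 8 under these settings. The mitochondrial count (3) was 0, 0 and 1, and 1 with the mean of a gene's probe sets. Without suffix probe sets 31 members were tested, 18 of them cytosolic and 11 mitochondrial. The cytosolic median was then -0.23 and the mitochondrial -0.25, beside -0.09 over 9917 genes. The share of all genes called at this setting was not counted. The single gene higher in males, Nars, was 0 with each 18S covariate, with no filter and without a variance trend. With the mean of probe sets Nars did not pass (0.15, adjusted p = 0.176), and the 1 gene called higher was Eprs. The count over all probe sets (9128) was 4725 with the 18S covariate, 414 with its 3′ probe set and 5890 at the upper-quartile filter. Leaving out 1 array gave 15 to 20 members lower and 0 to 1 higher, 11 to 15 cytosolic genes lower and 0 to 1 higher, 2 to 4 mitochondrial genes lower and 0 higher, and 7321 to 9454 probe sets. The member counts stayed within 1.5 times of the main count under quantile normalization, pseudocounts of 1 and 64, robust variances and array weights.

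Signs turned for Eprs (0.81, adjusted p = 0.00386, a call higher in males) and Farsa (0.15) with the mean of their probe sets and for Farsa (0.077) without suffix probe sets. Among genes that did not pass, Cars turned to -0.31 with the 18S covariate, -0.57, -0.20 and -0.23 with its 3′, 5′ and middle probe sets, -0.18 with array weights and -0.13 with quantile normalization. Hars2 turned to 0.17 with the mean of probe sets, 0.028 with quantile normalization and 0.37 without suffix probe sets. Rars2 turned to 0.0075 with quantile normalization and to 0.016 with the 3′ 18S probe set, which also turned Aars2 (0.20) and Nars2 (0.14). Leaving out 1 array spanned both signs for Cars (-0.083 to 0.24), Ears2 (-0.27 to 0.010), Fars2 (-0.047 to 0.22), Hars2 (-0.13 to 0.14) and Rars2 (-0.081 to 0.030). The cause was not tested.

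Same-numbered male and female arrays did not deviate together (correlations -0.13 to 0.04, and 1 of 8 arrays correlated best with its own number), so the numbers were not taken as pairs. With the replicate block 19 members were lower and 1 higher, with 15 cytosolic and 2 mitochondrial genes lower, and 8460 probe sets passed. Among the members the block ended the call of Vars2 and no other. With the mean of probe sets the median of all genes moved from -0.12 to -0.01.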
